A study of Mus musculus with 4 samples.

Results

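The genes of the respiratory chain and of ATP synthase in the mitochondrial inner membrane were followed through their RNA in mouse kidney cortex. Members were taken by symbol: mitochondrially encoded genes (mt-) and nuclear-encoded genes named for complex I (Ndufa, Ndufb, Ndufc, Ndufs, Ndufv), complex II (Sdha to Sdhd), complex III (Uqcr), complex IV (Cox4 to Cox8) and complex V (Atp5). Symbols that mark pseudogenes, antisense genes or assembly factors (such as Ndufaf) were left out. This gave 94 of the 21046 genes in the table, 81 encoded in the nucleus and 13 in mitochondrial DNA. Membership rests on the name, so Cox7a2l and Atp5s stayed in without a check that they are subunits. By name, 37 nuclear-encoded members belong to complex I, 4 to complex II, 8 to complex III, 15 to complex IV and 17 to complex V. The mitochondrially encoded members comprise 7 of complex I, 1 of complex III, 3 of complex IV and 2 of complex V.

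Single nuclei were sequenced on a droplet system, with 1 library for each of 4 genotypes: Klf4deltaECNos3-/-, Klf4deltaEC, Nos3-/- and Klf4flox/flox. The series asked how a knockdown of Klf4 in endothelium acts with and without Nos3, and Klf4flox/flox is the control. The labels give C57BL/6J for all 4 libraries, and the sources used here do not give age, sex, Cre driver, the mice in each library or the deleted parts of the genes. Klf4 encodes a transcription factor of the Krüppel-like family and Nos3 the nitric oxide synthase of endothelium. The deposited values are averages over the nuclei of a cluster (23 in all), in unique molecular identifiers (UMIs, counted RNA molecules) per 10000 UMIs. Such a value is a share of the RNA read, so fewer molecules of a gene cannot be told apart from more molecules of other genes.

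Complexes I and II pass electrons from NADH and succinate to ubiquinone, complex III passes them on to cytochrome c, and complex IV to oxygen. Complexes I, III and IV pump protons, and complex V uses the resulting gradient to make ATP. Complex II is built from nuclear-encoded subunits alone, and the other complexes combine subunits from both genomes. Mitochondrial messages are made inside the organelle, outside the nuclei that were isolated, and the part that carried-over RNA has in their values was not tested. In kidney, the proximal tubule, the thick ascending limb and the distal convoluted tubule are known for dense mitochondria.

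Neighbouring mitochondrial genes overlap in places. On chromosome M of GRCm38, mt-Atp8 (positions 7766 to 7969) and mt-Atp6 (7927 to 8607) share 43 bases, and mt-Nd4l (9877 to 10173) and mt-Nd4 (10167 to 11544) share 7. The shared stretches are shown because a read that reaches into them may match both genes. How far this makes the values of these 4 genes uncertain was not tested. Capitals mark the start codon of the downstream gene.
mt-Atp8 and mt-Atp6: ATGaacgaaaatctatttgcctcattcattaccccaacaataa
mt-Nd4l and mt-Nd4: ATGctaa

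Promoters were read from RefSeq (GRCm38.p6), which had an entry for 67 of the 81 nuclear-encoded members. Motifs were searched on both strands of the 250 bases before the start. The NRF1 letters, GCGC and GCGC with any 2 bases between them, were in 15 of 67 members (22.4%), against 5.64% of 27025 genes. The GABPA letters CCGGAAG were in 12 of 67 members (17.9%), against 7.83% of 27025 genes. The YY1 letters ATGGCGGC were in 1 of 67 members (1.49%), against 1.19% of 27025 genes, and the SP1 letters GGGCGG in 25 of 67 members (37.3%), against 35.4% of 27025 genes. NRF1 and GABPA are known as activators of nuclear genes for mitochondrial proteins, and a match here describes letters, not binding. Among members with an entry and a ratio, the promoters of Ndufa4 and Sdhb are shown because these had the lowest and the highest log2 ratio between the libraries labelled Nos3-/- and Klf4flox/flox, and that of Cox6a1 because it had the highest level per 10000 UMIs, not corrected for length, of the 3 members with both NRF1 and GABPA letters. Ndufa4 (chr6:11907498-11907700, minus strand) and Sdhb (chr4:140961021-140961202, plus strand) are printed up to where an annotated exon begins, and Cox6a1 (chr5:115348959-115349208, minus strand) up to the start. In GENCODE M21 the Cox6a1 gene begins earlier than in RefSeq, so that the last 23 bases shown, the GABPA letters among them, lie inside its annotated transcript. Each runs 5′ to 3′ towards its gene, with matches to any of the 4 motifs in capitals.
Ndufa4: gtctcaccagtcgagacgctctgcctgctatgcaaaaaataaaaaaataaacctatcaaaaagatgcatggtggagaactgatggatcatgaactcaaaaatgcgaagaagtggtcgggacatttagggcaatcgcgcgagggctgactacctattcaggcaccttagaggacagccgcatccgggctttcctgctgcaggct
Sdhb: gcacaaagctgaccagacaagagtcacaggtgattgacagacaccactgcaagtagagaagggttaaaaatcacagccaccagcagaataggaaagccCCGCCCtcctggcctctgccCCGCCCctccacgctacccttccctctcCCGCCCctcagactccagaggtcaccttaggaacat
Cox6a1: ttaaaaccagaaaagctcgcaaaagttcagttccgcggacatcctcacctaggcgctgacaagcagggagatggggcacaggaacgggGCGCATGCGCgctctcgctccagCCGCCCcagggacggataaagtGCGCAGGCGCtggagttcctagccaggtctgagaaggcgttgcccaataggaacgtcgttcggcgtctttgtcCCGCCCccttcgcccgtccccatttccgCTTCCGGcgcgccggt

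The Ndufa4 stretch held none of the 4 motifs. The Sdhb stretch held SP1 letters, in reverse, from bases -152, -132 and -104. Cox6a1 held NRF1 letters from bases -162 and -117, reverse SP1 letters from -139 and -44, and reverse GABPA letters from -16 to -10.

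In endothelial cell-like nuclei (cluster 10), Klf4 stood at 0.824 (Klf4deltaECNos3-/-), 0.779 (Klf4deltaEC), 0.445 (Nos3-/-) and 0.621 per 10000 (Klf4flox/flox). Nos3 stood there at 2.07 (Klf4deltaECNos3-/-), 0.930 (Klf4deltaEC), 1.52 (Nos3-/-) and 1.26 per 10000 (Klf4flox/flox). Klf4 was not lower than in the control in either library labelled with the knockdown, and Nos3 was not lower in either library labelled as lacking it, so the genotypes are used as labels. Whether these tags lie in the deleted parts is not known here. Numbers of nuclei, recovered from the values, were 5491 (Klf4deltaECNos3-/-), 6883 (Klf4deltaEC), 7004 (Nos3-/-) and 6766 (Klf4flox/flox). The library labelled Nos3-/- was the shallowest, with a nuclei-weighted median of 2282 UMIs per nucleus, whereas the medians were 4312 (Klf4deltaECNos3-/-), 3435 (Klf4deltaEC) and 3818 (Klf4flox/flox). It also held more of 14 proximal tubule markers outside the proximal tubule: their sum had a median of 59.6 per 10000 over 13 named clusters (range 42.9 to 102), against 18.9 (14.6 to 97.8) in Klf4flox/flox, and was higher in 13 of 13. The parts of depth and of these markers in the differences between libraries were not tested.

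Summed over 21 clusters with the same cluster weights in each library, the nuclear-encoded members made up 41.2 (Klf4deltaECNos3-/-), 38.4 (Klf4deltaEC), 27.01 (Nos3-/-) and 33.5 per 10000 (Klf4flox/flox). The mitochondrially encoded members made up 55.7 (Klf4deltaECNos3-/-), 54.2 (Klf4deltaEC), 24.2 (Nos3-/-) and 55.97 per 10000 (Klf4flox/flox). The library labelled Nos3-/- was lowest in both sums and lay farther from the other 3 in the mitochondrially encoded one. Its log2 ratio to Klf4flox/flox was -0.31 (95% counting interval -0.33 to -0.29) for the nuclear-encoded sum and -1.21 (-1.23 to -1.19) for the mitochondrially encoded sum. For Klf4deltaECNos3-/- over Klf4flox/flox the ratios were 0.30 (0.28 to 0.31) and -0.0070 (-0.022 to 0.0079), and for Klf4deltaEC over Klf4flox/flox they were 0.20 (0.18 to 0.21) and -0.046 (-0.060 to -0.032), nuclear-encoded sum first. These intervals cover counting error only. No test between genotypes is possible with a single library of each, and every difference is one between individual libraries.

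Single members are given by the same cluster-matched level. Levels are not corrected for gene length and are compared between libraries, not between genes. mt-Co1, the catalytic subunit of complex IV, stood at 14.2 (Klf4deltaECNos3-/-), 12.003 (Klf4deltaEC), 7.67 (Nos3-/-) and 15.6 per 10000 (Klf4flox/flox). mt-Co3, another core subunit, stood at 12.96 (Klf4deltaECNos3-/-), 11.8 (Klf4deltaEC), 5.88 (Nos3-/-) and 12.7 per 10000 (Klf4flox/flox). mt-Co2, which takes electrons from cytochrome c, stood at 6.74 (Klf4deltaECNos3-/-), 7.31 (Klf4deltaEC), 2.84 (Nos3-/-) and 6.50 per 10000 (Klf4flox/flox). The library labelled Nos3-/- lay below the other 3 in each of them. mt-Atp6, part of the proton channel of complex V, stood at 7.42 (Klf4deltaECNos3-/-), 7.12 (Klf4deltaEC), 1.69 (Nos3-/-) and 6.52 per 10000 (Klf4flox/flox), and mt-Cytb, the cytochrome of complex III, at 3.43 (Klf4deltaECNos3-/-), 3.45 (Klf4deltaEC), 1.45 (Nos3-/-) and 3.51 per 10000 (Klf4flox/flox), again with Nos3-/- lowest.

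The mitochondrially encoded subunits of complex I form the core of its membrane arm. mt-Nd4 stood at 3.94 (Klf4deltaECNos3-/-), 3.86 (Klf4deltaEC), 1.64 (Nos3-/-) and 4.54 per 10000 (Klf4flox/flox). mt-Nd1 stood at 2.11 (Klf4deltaECNos3-/-), 2.83 (Klf4deltaEC), 0.963 (Nos3-/-) and 2.34 per 10000 (Klf4flox/flox), and mt-Nd3 at 1.87 (Klf4deltaECNos3-/-), 2.45 (Klf4deltaEC), 0.784 (Nos3-/-) and 1.52 per 10000 (Klf4flox/flox). For mt-Nd1 and mt-Nd3 the library labelled Klf4deltaEC was highest and Nos3-/- lowest. mt-Nd2 stood at 1.82 (Klf4deltaECNos3-/-), 2.01 (Klf4deltaEC), 0.520 (Nos3-/-) and 1.71 per 10000 (Klf4flox/flox), and mt-Nd5 at 0.686 (Klf4deltaECNos3-/-), 0.670 (Klf4deltaEC), 0.423 (Nos3-/-) and 0.591 per 10000 (Klf4flox/flox). The low members were mt-Nd4l at 0.365 (Klf4deltaECNos3-/-), 0.422 (Klf4deltaEC), 0.201 (Nos3-/-) and 0.239 per 10000 (Klf4flox/flox) and mt-Nd6 at 0.0471 (Klf4deltaECNos3-/-), 0.111 (Klf4deltaEC), 0.0139 (Nos3-/-) and 0.0723 per 10000 (Klf4flox/flox). Nos3-/- was lowest in these 4 as well. mt-Atp8, a small subunit of complex V, stood at 0.111 (Klf4deltaECNos3-/-), 0.189 (Klf4deltaEC), 0.0981 (Nos3-/-) and 0.0923 per 10000 (Klf4flox/flox), and its log2 ratio for Nos3-/- over Klf4flox/flox, 0.088 (-0.30 to 0.48), was the only one of the 13 above 0 and lay within counting error.

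Complex I members differed in how far the libraries lay apart. Ndufs4, an accessory subunit whose loss in mice causes a Leigh-like disease, stood at 1.95 (Klf4deltaECNos3-/-), 2.03 (Klf4deltaEC), 1.78 (Nos3-/-) and 1.97 per 10000 (Klf4flox/flox). Ndufs1, which carries iron-sulfur clusters, stood at 1.68 (Klf4deltaECNos3-/-), 1.49 (Klf4deltaEC), 1.42 (Nos3-/-) and 1.49 per 10000 (Klf4flox/flox). Both covered a narrow range. Ndufa4, counted here by its name but known as a subunit of complex IV, stood at 0.716 (Klf4deltaECNos3-/-), 0.659 (Klf4deltaEC), 0.246 (Nos3-/-) and 0.540 per 10000 (Klf4flox/flox), and the library labelled Nos3-/- lay farther below the others than these differed among themselves.

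In complex II, Sdha, the flavoprotein, stood at 1.65 (Klf4deltaECNos3-/-), 1.53 (Klf4deltaEC), 1.17 (Nos3-/-) and 1.44 per 10000 (Klf4flox/flox), whereas Sdhb, the iron-sulfur subunit, was highest in Nos3-/-, at 1.01 (Klf4deltaECNos3-/-), 1.01 (Klf4deltaEC), 1.47 (Nos3-/-) and 1.04 per 10000 (Klf4flox/flox). The membrane anchors were Sdhc, at 0.858 (Klf4deltaECNos3-/-), 0.836 (Klf4deltaEC), 0.747 (Nos3-/-) and 0.763 per 10000 (Klf4flox/flox), and Sdhd, at 0.336 (Klf4deltaECNos3-/-), 0.295 (Klf4deltaEC), 0.140 (Nos3-/-) and 0.290 per 10000 (Klf4flox/flox). Sdhd was lowest in Nos3-/-. In complex III, the small subunit Uqcr10 stood at 0.528 (Klf4deltaECNos3-/-), 0.646 (Klf4deltaEC), 0.250 (Nos3-/-) and 0.375 per 10000 (Klf4flox/flox). It was highest in Klf4deltaEC and lowest in Nos3-/-.

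Complex IV holds many small subunits. Of these, Cox8a stood at 1.74 (Klf4deltaECNos3-/-), 1.63 (Klf4deltaEC), 0.471 (Nos3-/-) and 1.16 per 10000 (Klf4flox/flox). Cox7c stood at 0.693 (Klf4deltaECNos3-/-), 1.20 (Klf4deltaEC), 0.246 (Nos3-/-) and 0.505 per 10000 (Klf4flox/flox), and Cox6a1 at 0.931 (Klf4deltaECNos3-/-), 0.695 (Klf4deltaEC), 0.330 (Nos3-/-) and 0.561 per 10000 (Klf4flox/flox). All 3 were lowest in Nos3-/-, but Cox7c was highest in Klf4deltaEC and the other two in Klf4deltaECNos3-/-. The levels of Cox6b1 lay closer together, at 0.541 (Klf4deltaECNos3-/-), 0.472 (Klf4deltaEC), 0.419 (Nos3-/-) and 0.471 per 10000 (Klf4flox/flox). Cox7a2 stood at 0.437 (Klf4deltaECNos3-/-), 0.406 (Klf4deltaEC), 0.251 (Nos3-/-) and 0.365 per 10000 (Klf4flox/flox), and Cox7a2l at 0.357 (Klf4deltaECNos3-/-), 0.344 (Klf4deltaEC), 0.259 (Nos3-/-) and 0.326 per 10000 (Klf4flox/flox). In complex V, the catalytic beta subunit Atp5b stood at 2.31 (Klf4deltaECNos3-/-), 1.95 (Klf4deltaEC), 1.40 (Nos3-/-) and 1.82 per 10000 (Klf4flox/flox), and the alpha subunit Atp5a1 at 2.03 (Klf4deltaECNos3-/-), 1.69 (Klf4deltaEC), 1.02 (Nos3-/-) and 1.57 per 10000 (Klf4flox/flox). Atp5l, subunit g, went the other way and was highest in Nos3-/-, at 0.821 (Klf4deltaECNos3-/-), 0.861 (Klf4deltaEC), 0.971 (Nos3-/-) and 0.767 per 10000 (Klf4flox/flox).

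**Figure D1:**
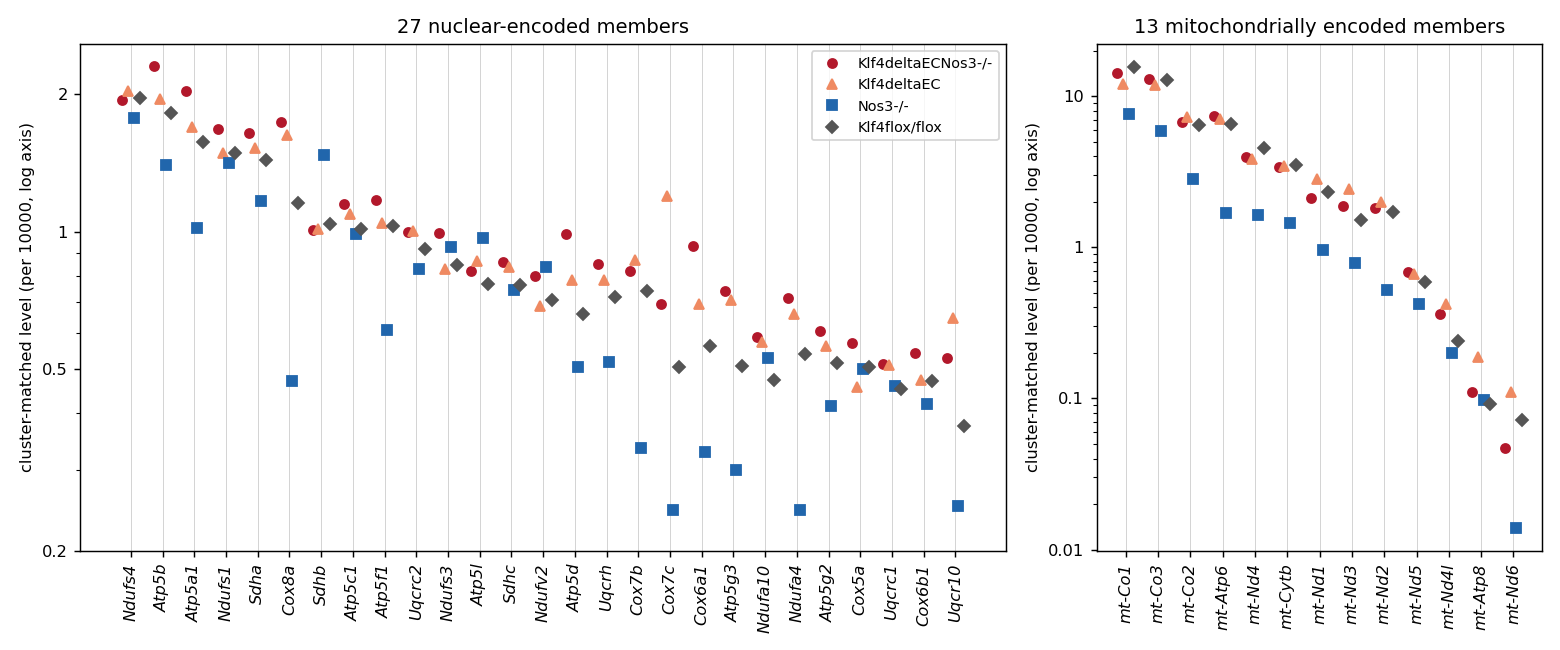
Cluster-matched level (UMIs per 10000, log axis) of 27 nuclear-encoded members and 13 mitochondrially encoded members, 1 symbol per library. The library labelled Nos3-/- lies lowest for mt-Co1 (7.67), Cox8a (0.471) and Ndufa4 (0.246) and highest for Sdhb (1.47) and Atp5l (0.971).

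By complex, the nuclear-encoded sums of the libraries labelled Nos3-/- and Klf4flox/flox differed least in complex II and most in complex IV. Complex II summed to 3.85 (Klf4deltaECNos3-/-), 3.67 (Klf4deltaEC), 3.53 (Nos3-/-) and 3.53 per 10000 (Klf4flox/flox), a log2 ratio of -0.0011 (-0.056 to 0.053) for Nos3-/- over Klf4flox/flox. This sum joins members on both sides of 0, with Sdhb at 0.50 (0.41 to 0.59), Sdhc at -0.031 (-0.15 to 0.088), Sdha at -0.30 (-0.39 to -0.20) and Sdhd at -1.05 (-1.31 to -0.80). Complex I summed to 14.3 (Klf4deltaECNos3-/-), 12.9 (Klf4deltaEC), 10.04 (Nos3-/-) and 11.7 per 10000 (Klf4flox/flox), a ratio of -0.22. Complex IV summed to 6.76 (Klf4deltaECNos3-/-), 6.71 (Klf4deltaEC), 3.22 (Nos3-/-) and 5.19 per 10000 (Klf4flox/flox), a ratio of -0.69 (-0.74 to -0.63). Complexes III and V lay between these, at -0.39 and -0.35. For Klf4deltaECNos3-/- over Nos3-/- all 5 sums were higher, from 0.13 in complex II to 1.07 in complex IV.

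Members were also counted. The 7 nuclear-encoded members that averaged under 0.05 per 10000 (Cox4i2, Cox7b2, Atp5k, Cox6b2, Cox7a1, Cox6a2 and Ndufa4l2) were left out of these counts. Of the other 74, 61 were lower in Nos3-/- than in Klf4flox/flox, against 57.4% of all genes at that level. By complex these were 28 of 36 (I), 3 of 4 (II), 7 of 8 (III), 10 of 10 (IV) and 13 of 16 (V). A log2 ratio of -1 or lower was reached by 14 of 74, against 6.39% of all genes. Among these, picked after their values were seen, were 2 low members: Ndufa1, an accessory subunit of complex I, at 0.0258 per 10000 in Nos3-/- and 0.109 in Klf4flox/flox, and Uqcrb, a ubiquinone-binding subunit of complex III, at 0.0523 in Nos3-/- and 0.193 in Klf4flox/flox. For Klf4deltaECNos3-/- over Nos3-/-, 69 of 74 were higher, against 66.3% of all genes. For Klf4deltaEC over Klf4flox/flox the count was 60, against 46.1%, for Klf4deltaECNos3-/- over Klf4flox/flox it was 69, against 66.9%, and for Klf4deltaECNos3-/- over Klf4deltaEC it was 56, against 68.9%.

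Within clusters, levels were compared as log2((value + 0.1)/(value + 0.1)) in the 21 clusters with at least 20 nuclei in every library, a scale that understates the change of low genes. A gene was summarised by its median over the clusters in which the 4 libraries averaged at least 0.5 per 10000, and needed 5 such clusters. This held for 27 of the 81 nuclear-encoded members and for 10 of the 13 mitochondrially encoded ones, mt-Nd4l, mt-Atp8 and mt-Nd6 being too low. Genes were counted at a limit of 1 in either direction. The 5 comparisons share libraries, so their values are only set side by side. Over the members with a ratio, the median was -0.31 (nuclear-encoded) and -1.22 (mitochondrially encoded) for Nos3-/- over Klf4flox/flox, beside 0.027 over all genes. These 3 medians were 0.099, 0.12 and -0.030 for Klf4deltaEC over Klf4flox/flox, 0.20, -0.053 and 0.056 for Klf4deltaECNos3-/- over Klf4flox/flox, 0.41, 1.15 and 0.031 for Klf4deltaECNos3-/- over Nos3-/-, and 0.0665, -0.078 and 0.091 for Klf4deltaECNos3-/- over Klf4deltaEC. They describe the members that passed the filter, not all members. For Klf4deltaECNos3-/- over Klf4deltaEC the nuclear-encoded median was -0.032 after median-ratio rescaling, and for Klf4deltaECNos3-/- over Klf4flox/flox the mitochondrially encoded one was 0.039 with fixed cluster weights. With fixed cluster weights the mitochondrially encoded median for Klf4deltaECNos3-/- over Klf4deltaEC was 0.0093. Each of these 3 values lies on the other side of 0 from the median given first.

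For Nos3-/- over Klf4flox/flox, 8 of the 10 mitochondrially encoded members stood at -1 or lower, against 2.16% of all 4585 genes. Medians were -1.95 for mt-Atp6, -1.54 for mt-Nd2, -1.38 for mt-Nd4, -1.30 for mt-Cytb, -1.22 for mt-Nd1, -1.22 for mt-Co2, -1.09 for mt-Co3 and -1.05 for mt-Co1. Each of these 8 was lower in 21 of 21 clusters. mt-Nd3 stood at -0.96 and was lower in 20 of 21, and mt-Nd5 at -0.45 and was lower in 13 of 15.

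Of the 27 nuclear-encoded members, 4 stood at -1 or lower in this comparison and 0 at 1 or higher, against 2.16% and 1.55% of all genes. Ndufa4 stood at -1.25 (lower in 10 of 10 clusters), Uqcr10 at -1.09 (6 of 6), Cox8a at -1.07 (21 of 21) and Atp5g3, a gene for the c subunit of complex V, at -1.01 (13 of 13). Cox7c followed at -0.87 (18 of 18). These medians cover only the clusters that passed the filter. By cluster-matched level, over all 21 clusters and without a pseudocount, the log2 ratio of Atp5g3 was -0.76, short of the limit. Uqcr10 also fell short, at levels of 0.250 in Nos3-/- and 0.375 in Klf4flox/flox. Ndufa4, at -1.14, and Cox8a, at levels of 0.471 in Nos3-/- and 1.16 in Klf4flox/flox, stayed past it. With a pseudocount of 0.5 in place of 0.1 the count of 4 became 0, and with fixed cluster weights 1. The highest were Sdhb at 0.40 (higher in 16 of 20 clusters), Atp5l at 0.32 (18 of 20), Ndufs3 at 0.24 (13 of 20), Ndufv2 at 0.23 (15 of 18) and Ndufa10 at 0.21 (9 of 11). Ndufs3 and Ndufv2 are core subunits of the matrix arm of complex I, and Ndufa10 is an accessory subunit. None of these 5 is a subunit of complex IV, to which only 6 of the 27 members belong by name. Of those 6, Cox5a stood above 0, at 0.034.

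Gene span, the distance from annotated start to end, ran along with this comparison and with others. The 79 nuclear-encoded members with a single GENCODE record had a median span of 7.67 kb, against 21.7 kb over all genes, and 65.8% of them spanned under 10 kb, against 28.7%. The 14 members with ratios that spanned under 10 kb had a median of -0.68 for Nos3-/- over Klf4flox/flox, and the 13 longer ones -0.055. Over all genes these medians were -0.36 (224 genes) and 0.039 (4320 genes). Across genes, Pearson's r between log span and ratio was 0.69 over the 27 members and 0.26 over 4544 genes, which share the libraries and are not independent replicates. The 4 members at -1 or lower all lay under 10 kb: Ndufa4 spans 7.21 kb, Uqcr10 2.37 kb, Cox8a 2.46 kb and Atp5g3 2.88 kb. Sdhb spans 17.99 kb, but Atp5l, also among the highest, only 8.19 kb. In the other comparisons r over the members was -0.59 (Klf4deltaEC over Klf4flox/flox), -0.72 (Klf4deltaECNos3-/- over Klf4flox/flox), -0.73 (Klf4deltaECNos3-/- over Nos3-/-) and 0.33 (Klf4deltaECNos3-/- over Klf4deltaEC). Over all genes these values were -0.089, -0.27, -0.37 and -0.16, in the same order. The part of span in the ratios was not tested.

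**Figure D2:**
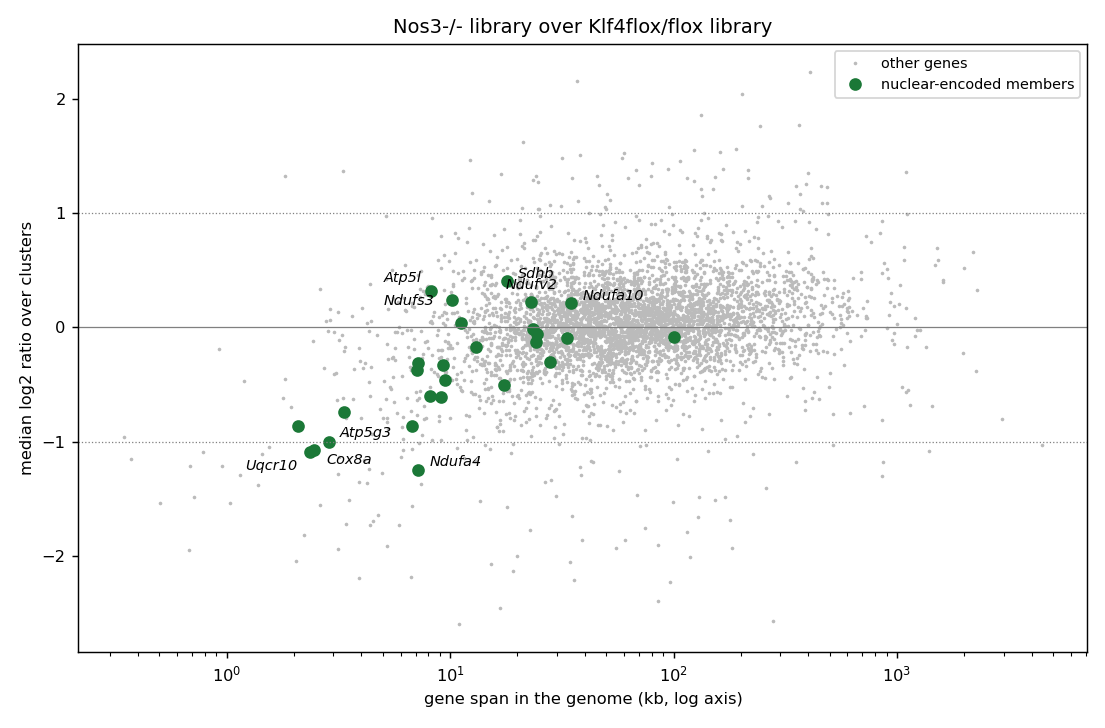
Median log2 ratio over clusters for Nos3-/- over Klf4flox/flox against gene span in kb (log axis), with the 27 nuclear-encoded members marked among all genes with a ratio and a span. The 4 members at -1 or lower lie under 10 kb, and Sdhb at 0.40 is the highest member.

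Other gene lists were set beside the members for Nos3-/- over Klf4flox/flox. Of 15 short abundant messages of the cytosol, 11 had ratios, of which 5 stood at -1 or lower and 0 at 1 or higher, from Ubb at -2.05 and Tmsb4x at -1.82 to Gpx4 at 0.041 and Actb at 0.096. Their sum was 21.9 (Klf4deltaECNos3-/-), 17.3 (Klf4deltaEC), 7.76 (Nos3-/-) and 13.2 per 10000 (Klf4flox/flox). Genes of the cytosolic ribosome summed to 13.6 (Klf4deltaECNos3-/-), 10.2 (Klf4deltaEC), 5.71 (Nos3-/-) and 9.29 per 10000 (Klf4flox/flox), with 1 of 75 high enough for a ratio (Rpl41, -0.47). The library labelled Nos3-/- was lowest in both sums, as it was in those of the members.

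Of 46 assembly factors, 10 had ratios and 1 passed the limit: Cox11, a copper carrier for complex IV, stood at -1.07, then Atpif1, the inhibitor of complex V, at -0.64, and at the other end Uqcc1 at 0.080 and Cox10 at 0.24. Of 16 genes of the tricarboxylic acid cycle and pyruvate dehydrogenase, 13 had ratios and 0 passed it, from Idh3b at -0.83 and Idh3a at -0.75 to Dlst at 0.19 and Cs, citrate synthase, at 0.46. Their sum was 18.5 (Klf4deltaECNos3-/-), 17.7 (Klf4deltaEC), 17.2 (Nos3-/-) and 17.3 per 10000 (Klf4flox/flox). Of 24 regulators of mitochondrial biogenesis, 9 had ratios and 0 passed, with Ppargc1a at -0.22 and Lrpprc at -0.14 lowest and Esrra at 0.48 and Ppara at 0.57 highest. The sum of these regulators was highest in Nos3-/-, at 67.1 (Klf4deltaECNos3-/-), 68.5 (Klf4deltaEC), 76.3 (Nos3-/-) and 68.1 per 10000 (Klf4flox/flox). Among 14 genes of electron carriers and quinone synthesis (6 with ratios, from Coq3 at -0.17 to Pdss1 at 0.076) and 76 of the mitochondrial ribosome (3, from Mrpl1 at -0.12 to Mrps9 at 0.070), 0 passed. Of 3 nuclear-retained RNAs with ratios, Malat1 stood at -0.29, Kcnq1ot1 at -0.14 and Neat1 at 0.54.

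For Klf4deltaEC over Klf4flox/flox, 0 of the members with a ratio over clusters passed the limit in either direction, against 0.349% of all genes. After median-ratio rescaling, or with fixed cluster weights, 1 nuclear-encoded member did. Cox7c was highest at 0.91 and was higher in 18 of 18 clusters. Uqcr10 stood at 0.61 (5 of 6), Cox8a at 0.47 (21 of 21), Atp5g3 at 0.38 (11 of 13) and Cox6a1 at 0.26 (12 of 14). The lowest were Cox5a, a subunit of complex IV, at -0.22 (lower in 6 of 9), Uqcrh at -0.10, Cox6b1 at -0.099, Sdhb at -0.017 and Cox7b at -0.014. Mitochondrially encoded members lay on both sides of 0: mt-Nd3 stood at 0.62 and was higher in 21 of 21, and mt-Co1 at -0.39 and was lower in 21 of 21.

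In Klf4deltaECNos3-/- over Klf4flox/flox, 0 of the members with a ratio over clusters passed the limit, against 0.371% of all genes. The highest nuclear-encoded members were Cox6a1 at 0.50 (higher in 14 of 14 clusters), Cox8a at 0.45 (19 of 21), Atp5d, the delta subunit of complex V, at 0.43 (19 of 19), Atp5g3 at 0.42 and Cox7b at 0.34. Sdhb at -0.035 was lowest, followed by Ndufs4 at 0.035, Atp5f1 at 0.044, Uqcrc2 at 0.065 and Atp5l at 0.093. The mitochondrially encoded members with a ratio ran from -0.23 (mt-Nd4) to 0.27 (mt-Nd3).

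In Klf4deltaECNos3-/- over Nos3-/-, 7 of the 27 nuclear-encoded members with a ratio stood at 1 or higher and 0 at -1 or lower, against 3.01% and 1.66% of all genes. They were Ndufa4 at 1.42 (higher in 10 of 10 clusters), Cox8a at 1.42 (21 of 21), Uqcr10 at 1.30 (5 of 6), Atp5g3 at 1.25 (13 of 13), Cox7b at 1.11 (13 of 15), Cox7c at 1.09 (18 of 18) and Cox6a1 at 1.09 (14 of 14). Sdhb at -0.44 and Atp5l at -0.30 were lowest, each lower in 18 of 20 clusters, followed by Ndufv2 at -0.12, Ndufa10 at 0.072 and Ndufs1 at 0.10. Of the 10 mitochondrially encoded members with a ratio, 8 stood at 1 or higher, from mt-Atp6 at 2.09 and mt-Nd2 at 1.53 to mt-Nd1 at 1.04, and mt-Co1 (0.82) and mt-Nd5 (0.48) did not. With a pseudocount of 0.5 these counts became 1 (nuclear-encoded) and 5 (mitochondrially encoded).

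In Klf4deltaECNos3-/- over Klf4deltaEC, 0 of the members with a ratio over clusters passed the limit, against 0.632% of all genes. Cox5a at 0.47, Atp5d at 0.35, Ndufs3 at 0.25, Atp5g2 at 0.23 and Cox6a1 at 0.23 were highest. Cox7c at -0.69 was lowest and was lower in 18 of 18 clusters, followed by Uqcr10 at -0.24, Atp5l at -0.17, Cox7b at -0.12 and Atp5g3 at -0.092. The mitochondrially encoded members ran from -0.48 (mt-Nd3) to 0.21 (mt-Co1).

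The 2 sums were then compared in each cluster. For Nos3-/- over Klf4flox/flox, the mitochondrially encoded sum was lower in 21 of 21 clusters, with log2 ratios from -1.63 in podocyte-like cluster 15 to -0.85 in intercalated cell-like cluster 14. The nuclear-encoded sum was lower in 20 of 21, from -0.75 in the unnamed cluster 12 to 0.036 in the unnamed cluster 1. In 21 of 21 clusters the nuclear-encoded ratio was the higher one, by a median of 0.97. For Klf4deltaECNos3-/- over Nos3-/- both sums were higher in 21 of 21, with medians of 0.52 (nuclear-encoded) and 1.18 (mitochondrially encoded). For Klf4deltaEC over Klf4flox/flox, the nuclear-encoded sum was higher in 19 and the mitochondrially encoded sum in 6 of 21. These counts were 18 and 9 for Klf4deltaECNos3-/- over Klf4flox/flox, and 12 and 11 for Klf4deltaECNos3-/- over Klf4deltaEC.

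**Figure D3:**
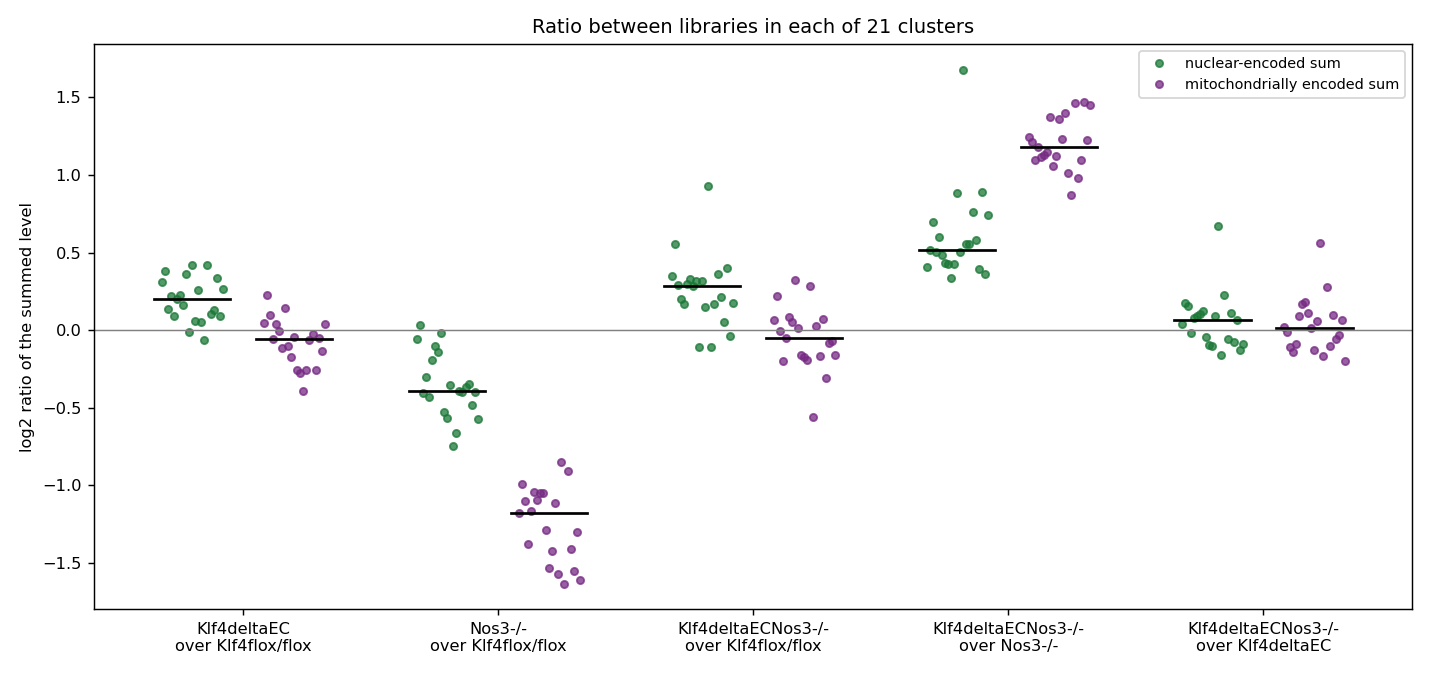
Log2 ratio of the summed nuclear-encoded and mitochondrially encoded levels between libraries, 1 point for each of 21 clusters, by comparison. For Nos3-/- over Klf4flox/flox the mitochondrially encoded points lie between -1.63 and -0.85 and the nuclear-encoded points between -0.75 and 0.036.

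In endothelial cell-like nuclei, the targeted cell type, the nuclear-encoded sum was 40.3 (Klf4deltaECNos3-/-), 43.3 (Klf4deltaEC), 21.9 (Nos3-/-) and 32.3 per 10000 (Klf4flox/flox). The mitochondrially encoded sum was 94.1 (Klf4deltaECNos3-/-), 103 (Klf4deltaEC), 36.6 (Nos3-/-) and 106 per 10000 (Klf4flox/flox). Nos3-/- was lowest in both, with log2 ratios to Klf4flox/flox of -0.56 (nuclear-encoded) and -1.53 (mitochondrially encoded). Median depth in these nuclei was 2149 (Klf4deltaECNos3-/-), 1518 (Klf4deltaEC), 1226 (Nos3-/-) and 1735 UMIs (Klf4flox/flox), also lowest in Nos3-/-.

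Across clusters, ordered by the mean of the libraries, the nuclear-encoded sum was highest in cluster 12, at 132 (Klf4deltaECNos3-/-), 82.7 (Klf4deltaEC), 41.2 (Nos3-/-) and 69.2 per 10000 (Klf4flox/flox). This cluster stayed unnamed, was led by Kap, Fth1 and Gpx3, and was shallow, with median depths of 789 (Klf4deltaECNos3-/-), 782 (Klf4deltaEC), 1016 (Nos3-/-) and 782 UMIs (Klf4flox/flox). Thick ascending limb-like cluster 2 followed, at 56.6 (Klf4deltaECNos3-/-), 50.8 (Klf4deltaEC), 34.9 (Nos3-/-) and 46.2 per 10000 (Klf4flox/flox). Distal convoluted tubule-like cluster 9 stood at 45.2 (Klf4deltaECNos3-/-), 48.3 (Klf4deltaEC), 33.7 (Nos3-/-) and 48.7 per 10000 (Klf4flox/flox), and the proximal tubule-like clusters 0, 3, 5 and 6 together at 33.5 (Klf4deltaECNos3-/-), 32.5 (Klf4deltaEC), 24.5 (Nos3-/-) and 27.4 per 10000 (Klf4flox/flox). These joint values are weighted by each library's own nuclei, so they also carry its mix of the proximal tubule-like clusters. Podocyte-like cluster 15 was lowest by the mean of the libraries, at 25.99 (Klf4deltaECNos3-/-), 27.01 (Klf4deltaEC), 15.4 (Nos3-/-) and 20.2 per 10000 (Klf4flox/flox). Of 22 pairs of neighbours in the order of clusters, 4 kept their order in all 4 libraries, so that most neighbours did not differ beyond the spread between libraries.

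The mitochondrially encoded sum followed another order. By the mean of the libraries cluster 12, at 269 (Klf4deltaECNos3-/-), 182 (Klf4deltaEC), 102 (Nos3-/-) and 221 per 10000 (Klf4flox/flox), was followed by macrophage-like cluster 21, at 114 (Klf4deltaECNos3-/-), 130.5 (Klf4deltaEC), 41.7 (Nos3-/-) and 127 per 10000 (Klf4flox/flox). Urothelium-like cluster 20 stood at 136 (Klf4deltaECNos3-/-), 69.7 (Klf4deltaEC), 108 (Nos3-/-) and 82.3 per 10000 (Klf4flox/flox), with 12 nuclei in Nos3-/-. It lay above cluster 21 in Klf4deltaECNos3-/- and above both others in Nos3-/-. Cycling cell-like cluster 22 was lowest by the mean of the libraries, at 19.6 (Klf4deltaECNos3-/-), 24.5 (Klf4deltaEC), 13.2 (Nos3-/-) and 32.3 per 10000 (Klf4flox/flox), with 14 (Klf4deltaECNos3-/-), 12 (Klf4deltaEC), 17 (Nos3-/-) and 15 nuclei (Klf4flox/flox). Unnamed cluster 7 stood at 37.97 (Klf4deltaECNos3-/-), 33.5 (Klf4deltaEC), 14.6 (Nos3-/-) and 30.3 per 10000 (Klf4flox/flox), so that in Klf4flox/flox it was the lower of the pair. Here 6 of 22 pairs of neighbours kept their order in all 4 libraries.

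**Figure D4:**
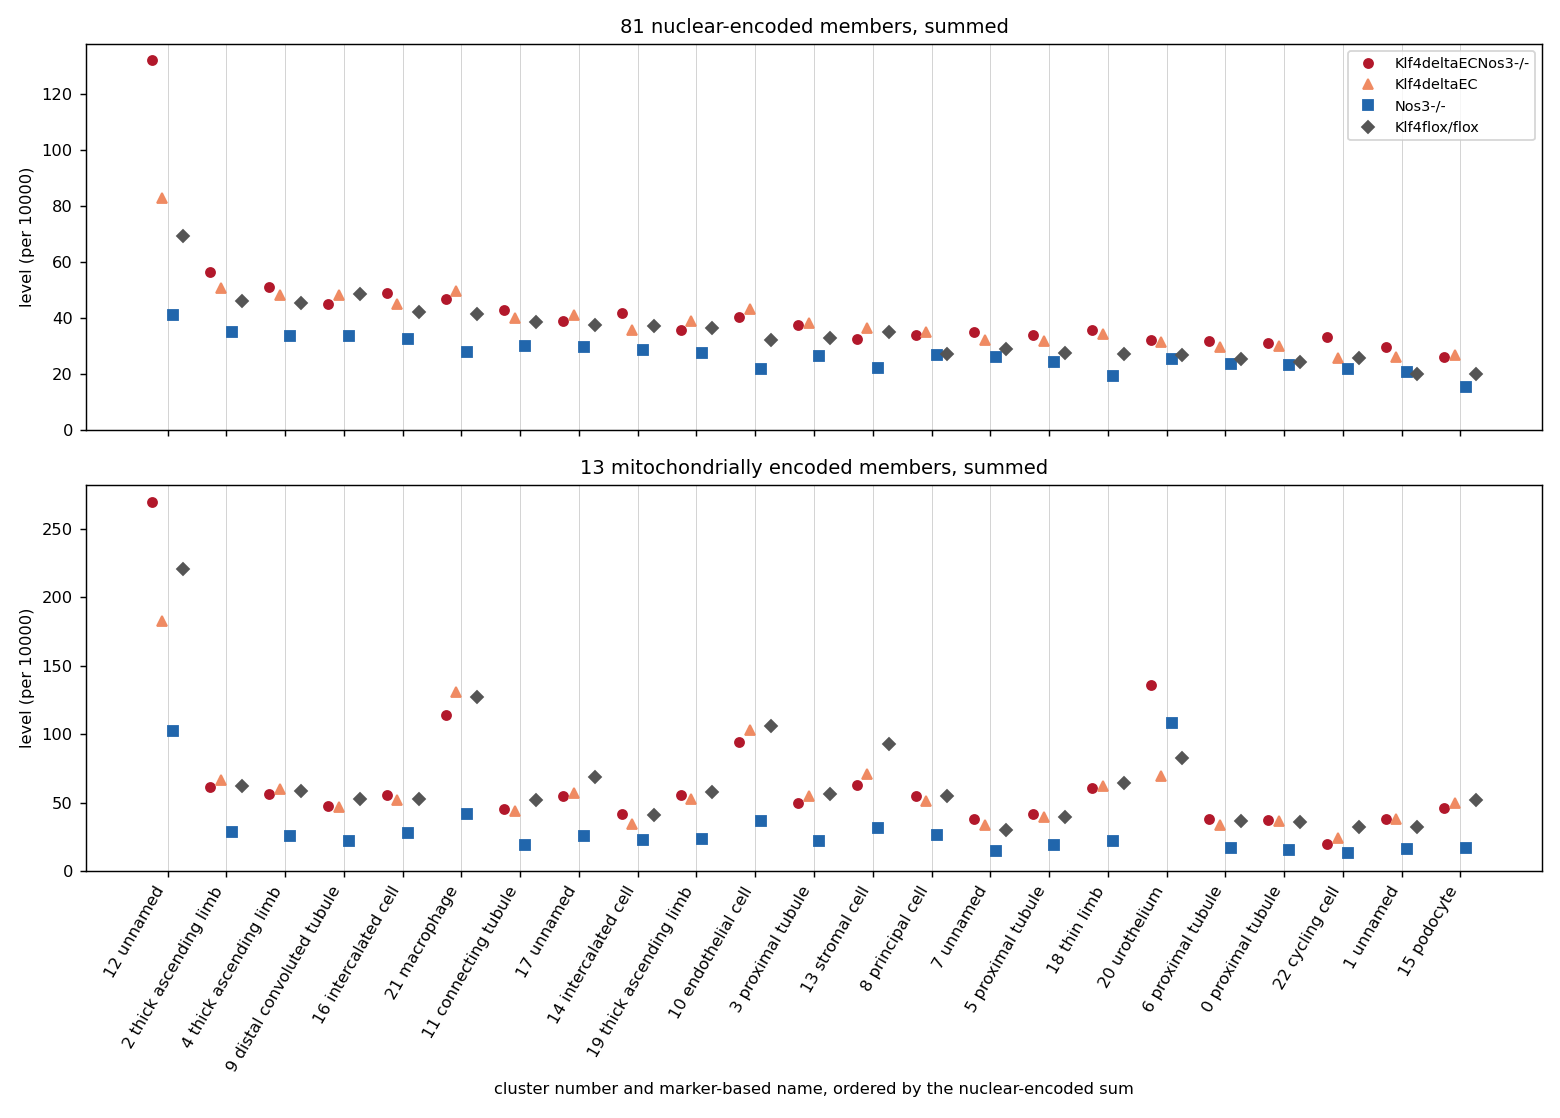
Summed level (UMIs per 10000) of the 81 nuclear-encoded and 13 mitochondrially encoded members in each of 23 clusters, 1 symbol per library. Cluster 12 stands highest for both sums by the mean, at means over the 4 libraries of 81.2 (nuclear-encoded) and 194 (mitochondrially encoded).

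Both sums ran against depth. Over the 23 clusters of a library, Pearson's r between log2 of the mitochondrially encoded sum and log2 of median depth was -0.83 (Klf4deltaECNos3-/-), -0.95 (Klf4deltaEC), -0.69 (Nos3-/-) and -0.95 (Klf4flox/flox). For the nuclear-encoded sum and depth, on the same scale, it was -0.75 (Klf4deltaECNos3-/-), -0.78 (Klf4deltaEC), -0.41 (Nos3-/-) and -0.64 (Klf4flox/flox). Without cluster 12 these values were -0.70 (Klf4deltaECNos3-/-), -0.93 (Klf4deltaEC), -0.58 (Nos3-/-) and -0.93 (Klf4flox/flox) for the mitochondrially encoded sum and -0.49 (Klf4deltaECNos3-/-), -0.68 (Klf4deltaEC), -0.26 (Nos3-/-) and -0.48 (Klf4flox/flox) for the nuclear-encoded one. Between the 2 sums it was 0.65 (Klf4deltaECNos3-/-), 0.77 (Klf4deltaEC), 0.43 (Nos3-/-) and 0.62 (Klf4flox/flox), and without cluster 12 it was 0.28 (Klf4deltaECNos3-/-), 0.64 (Klf4deltaEC), 0.24 (Nos3-/-) and 0.44 (Klf4flox/flox). These values describe clusters that share a library, its depth and its free RNA. The nuclear-encoded sum exceeded the mitochondrially encoded one in 1 (Klf4deltaECNos3-/-), 3 (Klf4deltaEC), 16 (Nos3-/-) and 0 of 23 clusters (Klf4flox/flox).

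Single nuclear-encoded members followed the clusters unevenly. By the mean of the libraries, 58 of 81 were highest in cluster 12, and without it 26 were highest in macrophage-like cluster 21, 18 in thick ascending limb-like cluster 2, 9 in distal convoluted tubule-like cluster 9 and 7 in intercalated cell-like cluster 16. The share of all genes highest in each cluster was not computed, so these counts are not read as particular to the members. Clusters 12 and 21 were shallow. Cluster 21 held 41 (Klf4deltaECNos3-/-), 68 (Klf4deltaEC), 43 (Nos3-/-) and 65 nuclei (Klf4flox/flox). The part of depth in the counts was not tested. Among members reaching 1 per 10000, Atp5e, the epsilon subunit of complex V, Ndufa4, Cox8a, Ndufb9 and Cox7b varied most between clusters. Ndufa4 stood at 3.18 (Klf4deltaECNos3-/-), 1.68 (Klf4deltaEC), 0.0666 (Nos3-/-) and 2.12 per 10000 (Klf4flox/flox) in cluster 21. In cluster 21 of Nos3-/-, 3 counted molecules correspond to 0.542 per 10000. The Nos3-/- value of Ndufa4 lies below this, so the size of its difference is uncertain. Cox8a stood at 11.7 (Klf4deltaECNos3-/-), 6.34 (Klf4deltaEC), 1.23 (Nos3-/-) and 4.71 per 10000 (Klf4flox/flox) in cluster 12 and at 0.914 (Klf4deltaECNos3-/-), 0.931 (Klf4deltaEC), 0.343 (Nos3-/-) and 0.614 per 10000 (Klf4flox/flox) in cluster 1. Cox7b stood at 1.65 (Klf4deltaECNos3-/-), 1.72 (Klf4deltaEC), 0.488 (Nos3-/-) and 1.29 per 10000 (Klf4flox/flox) in cluster 2. In each of these clusters Nos3-/- was lowest.

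Atp5e and Ndufb9, an accessory subunit of complex I, were highest in cluster 12, at 1.67 (Klf4deltaECNos3-/-), 1.98 (Klf4deltaEC), 0.842 (Nos3-/-) and 1.12 per 10000 (Klf4flox/flox) for Atp5e and 2.30 (Klf4deltaECNos3-/-), 1.22 (Klf4deltaEC), 0.249 (Nos3-/-) and 0.655 per 10000 (Klf4flox/flox) for Ndufb9. Ndufs4 was instead highest in distal convoluted tubule-like cluster 9, at 2.48 (Klf4deltaECNos3-/-), 3.87 (Klf4deltaEC), 2.46 (Nos3-/-) and 3.29 per 10000 (Klf4flox/flox), and lowest in podocyte-like cluster 15, at 1.08 (Klf4deltaECNos3-/-), 1.28 (Klf4deltaEC), 1.29 (Nos3-/-) and 1.04 per 10000 (Klf4flox/flox). Complex IV made up 21.4% of the mean nuclear-encoded sum in cluster 12 and 14.04% in proximal tubule-like cluster 0.

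Several subunits have isoforms known from other tissues. Cox6a2, the heart and skeletal muscle form, was highest in proximal tubule-like cluster 3, at 0.0985 (Klf4deltaECNos3-/-), 0.0905 (Klf4deltaEC), 0.0382 (Nos3-/-) and 0.0498 per 10000 (Klf4flox/flox). Cox7a1, also known from muscle, reached at most 0.0268 per 10000 by the mean of the libraries, and Cox4i2, known from lung, 0.0312. Cox4i1, Cox8b and Cox8c, also on the list of isoforms, were absent by these symbols from the 21046 genes, so the sums of complex IV lack them. Cox6b2, known from testis, was highest in cycling cell-like cluster 22, at 0.664 (Klf4deltaECNos3-/-), 0.335 (Klf4deltaEC), 0.435 (Nos3-/-) and 0.530 per 10000 (Klf4flox/flox). Cox7b2 was highest in podocyte-like cluster 15, at 0.181 (Klf4deltaECNos3-/-), 0.159 (Klf4deltaEC), 0.0221 (Nos3-/-) and 0.120 per 10000 (Klf4flox/flox). Ndufa4l2, known to be induced by low oxygen, was highest in stromal cell-like cluster 13, at 0.0281 (Klf4deltaECNos3-/-), 0.0552 (Klf4deltaEC), 0.0244 (Nos3-/-) and 0.0569 per 10000 (Klf4flox/flox). Apart from Cox6b2 in cluster 22, these levels stayed under 0.2 per 10000. All of them, Cox6b2 included, rest on few molecules. In cluster 22, 3 counted molecules correspond to 0.456 (Klf4deltaEC, 12 nuclei) and 0.607 per 10000 (Nos3-/-, 17 nuclei). Cox6b2 lay below these levels in both libraries.

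The c subunit of complex V is encoded by 3 genes with the same mature protein. Atp5g3 stood at 0.741 (Klf4deltaECNos3-/-), 0.707 (Klf4deltaEC), 0.300 (Nos3-/-) and 0.508 per 10000 (Klf4flox/flox). Atp5g2 stood at 0.607 (Klf4deltaECNos3-/-), 0.563 (Klf4deltaEC), 0.415 (Nos3-/-) and 0.516 per 10000 (Klf4flox/flox), and Atp5g1 at 0.577 (Klf4deltaECNos3-/-), 0.436 (Klf4deltaEC), 0.223 (Nos3-/-) and 0.320 per 10000 (Klf4flox/flox). All 3 were lowest in Nos3-/-. Atp5o and Atp5o.1 had no single gene record, and their split is uncertain. Set beside promoter letters, the median log2 ratio for Nos3-/- over Klf4flox/flox was 0.12 for the 8 members with the letters and -0.46 for the 15 without (SP1), -0.30 for the 5 members with the letters and -0.35 for the 18 without (NRF1), and -0.33 for the 5 members with the letters and -0.34 for the 18 without (GABPA). These medians are descriptions with no test.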

How the data were processed

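Nuclei from kidney cortex were sequenced with a droplet (10X) system, per the labels' protocols. The submitters' processing notes name Cell Ranger, Seurat and mm10, without versions. The authors deposited 1 table of mean signal per gene, cluster and library (21046 genes, 92 columns, each summing to 10000), so all 23 clusters are theirs, and cluster names were rebuilt here from markers. The sources used here do not say how doublets were handled, and cluster means allow no doublet call, so whether clusters such as the unnamed, deep cluster 7 hold doublets was not tested. Numbers of nuclei and depth were recovered from the steps between deposited values and are inferred. The recovery was tried on simulated nuclei, but not for the shallow cluster 12 or the small clusters 20 and 22. Members, gene lists and markers were chosen with earlier results of these data known.

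Ratios used a pseudocount of 0.1, a filter of 0.5 per 10000, 5 or more clusters and a limit of 1 (log2). Level intervals (95%) rest on the recovered depth. Named were all mitochondrially encoded members, isoform pairs, the 5 highest and 5 lowest nuclear-encoded members per comparison, the 5 most variable over clusters, and the 2 highest and 2 lowest of other lists. Members named for their role or level beside these (Ndufs1, Sdha, Sdhc, Sdhd, Atp5b, Atp5a1, Ndufa1 and Uqcrb where no rule names them) were chosen after their values were seen. Alternatives were another pseudocount, no filter, median-ratio rescaling, fixed cluster weights, scaling to nuclear-encoded genes, leaving out each library, and, chosen after seeing the data, leaving out cluster 12 or the proximal tubule-like clusters. With 1 library per genotype no model was fitted. Spans come from GENCODE M21. Python 3.11.15, numpy 2.4.6, pandas 2.3.3, scipy 1.17.1 and matplotlib 3.10.9 were used.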

Additional observations from a re-analysis of the deposited data

Results flagged for a closer look

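Some values pointed in opposite directions in comparisons whose labels differ in the same gene, although neither Klf4 nor Nos3 was lower in endothelial cell-like nuclei where the label says so. In the pair whose labels differ in Nos3, the median log2 ratio of the nuclear-encoded members was 0.0665 for Klf4deltaECNos3-/- over Klf4deltaEC and -0.31 for Nos3-/- over Klf4flox/flox; after median-ratio rescaling the first of these was -0.032. mt-Co1 stood at 0.21 for Klf4deltaECNos3-/- over Klf4deltaEC and at -1.05 for Nos3-/- over Klf4flox/flox, each in at least 90% of clusters. In the pair whose labels differ in Klf4, mt-Co1 stood at 0.82 for Klf4deltaECNos3-/- over Nos3-/- and at -0.39 for Klf4deltaEC over Klf4flox/flox, and mt-Nd4 at 1.24 for Klf4deltaECNos3-/- over Nos3-/- and at -0.19 for Klf4deltaEC over Klf4flox/flox. Both pairs are formed from the same libraries, so the entries of mt-Co1 in them are not separate results. Each pair contains the library labelled Nos3-/-, the shallowest. With 1 library per genotype these differences were not tested.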

How the results depend on the processing

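No value past the limit changed sign under these alternatives. In the lists below, counting error is that of the matching sum of members, not of the median. It is the distance from the log2 ratio of that sum to the end of its counting interval, 0.0141 to 0.0202. The counting error of the medians was not computed, so a listed move may lie within it. Leaving out 1 of the 4 libraries cannot by construction move the mean of a cluster's sum by more than the spread between libraries, so that alternative says nothing about stability. With a pseudocount of 0.5, medians that moved by more than counting error were 0.074 (Klf4deltaEC over Klf4flox/flox, nuclear), 0.097 (Klf4deltaEC over Klf4flox/flox, mitochondrial), -0.20 (Nos3-/- over Klf4flox/flox, nuclear), -1.04 (Nos3-/- over Klf4flox/flox, mitochondrial), 0.14 (Klf4deltaECNos3-/- over Klf4flox/flox, nuclear), 0.33 (Klf4deltaECNos3-/- over Nos3-/-, nuclear), 1.01 (Klf4deltaECNos3-/- over Nos3-/-, mitochondrial), -0.055 (Klf4deltaECNos3-/- over Klf4deltaEC, mitochondrial). With no filter on low values, medians that moved by more than counting error were 0.18 (Klf4deltaEC over Klf4flox/flox, mitochondrial), -0.21 (Nos3-/- over Klf4flox/flox, nuclear), -1.09 (Nos3-/- over Klf4flox/flox, mitochondrial), 0.39 (Klf4deltaECNos3-/- over Nos3-/-, nuclear), 1.06 (Klf4deltaECNos3-/- over Nos3-/-, mitochondrial), -0.15 (Klf4deltaECNos3-/- over Klf4deltaEC, mitochondrial). After median-ratio rescaling, medians that moved by more than counting error were 0.14 (Klf4deltaEC over Klf4flox/flox, mitochondrial), -0.35 (Nos3-/- over Klf4flox/flox, nuclear), -1.25 (Nos3-/- over Klf4flox/flox, mitochondrial), 0.15 (Klf4deltaECNos3-/- over Klf4flox/flox, nuclear), -0.12 (Klf4deltaECNos3-/- over Klf4flox/flox, mitochondrial), -0.032 (Klf4deltaECNos3-/- over Klf4deltaEC, nuclear), -0.20 (Klf4deltaECNos3-/- over Klf4deltaEC, mitochondrial). With fixed cluster weights, medians that moved by more than counting error were 0.14 (Klf4deltaEC over Klf4flox/flox, mitochondrial), -0.27 (Nos3-/- over Klf4flox/flox, nuclear), -1.18 (Nos3-/- over Klf4flox/flox, mitochondrial), 0.039 (Klf4deltaECNos3-/- over Klf4flox/flox, mitochondrial), 0.46 (Klf4deltaECNos3-/- over Nos3-/-, nuclear), 1.17 (Klf4deltaECNos3-/- over Nos3-/-, mitochondrial), 0.097 (Klf4deltaECNos3-/- over Klf4deltaEC, nuclear), 0.0093 (Klf4deltaECNos3-/- over Klf4deltaEC, mitochondrial). Without cluster 12, medians that moved by more than counting error were -0.27 (Nos3-/- over Klf4flox/flox, nuclear), 0.47 (Klf4deltaECNos3-/- over Nos3-/-, nuclear), 0.026 (Klf4deltaECNos3-/- over Klf4deltaEC, nuclear), -0.10 (Klf4deltaECNos3-/- over Klf4deltaEC, mitochondrial). Without the proximal tubule-like clusters, medians that moved by more than counting error were 0.072 (Klf4deltaEC over Klf4flox/flox, nuclear), 0.10 (Klf4deltaEC over Klf4flox/flox, mitochondrial), -0.33 (Nos3-/- over Klf4flox/flox, nuclear), 0.49 (Klf4deltaECNos3-/- over Nos3-/-, nuclear), 1.11 (Klf4deltaECNos3-/- over Nos3-/-, mitochondrial), 0.085 (Klf4deltaECNos3-/- over Klf4deltaEC, nuclear), -0.050 (Klf4deltaECNos3-/- over Klf4deltaEC, mitochondrial). The count of nuclear-encoded members at -1 or lower for Nos3-/- over Klf4flox/flox was 0 with a pseudocount of 0.5 and 1 with fixed weights. The count at 1 or higher was 1 for Klf4deltaEC over Klf4flox/flox after rescaling and 1 with fixed weights. For Klf4deltaECNos3-/- over Nos3-/- it was 1 (nuclear) and 5 (mitochondrial) with a pseudocount of 0.5. No paired analysis was possible because each genotype has 1 library. Depth was inferred, and it limits the low members most.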
